A study of Mus musculus with 4 samples.

Results

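Far regions are the stretches of open chromatin on chromosomes 1 to 19 of the mouse whose strongest summit lay more than 100 kb from both outer ends of every protein-coding gene and outside all such genes. There were 7109 of them among 111280 separate autosomal regions (6.39%, Wilson 95% interval 6.25 to 6.53%), and 113404 regions with the X chromosome included. They come from a peak list of bulk ATAC-seq, an assay in which the transposase Tn5 cuts accessible DNA, made on cultured organoids of wild-type mouse colonic epithelium. All cultures grew in a medium with EGF, Noggin, R-spondin and Wnt. The 4 groups held 1 library each: organoids from mice with chronic colitis or from healthy controls, each kept for 24 h with 10 µM T-5224, which blocks the transcription factor AP-1, or with 0.1% DMSO as vehicle. The list gives a value per region and none per library, and the sources used here do not say which libraries entered it, so neither colitis nor T-5224 was compared with its control. Without replicates no test between conditions was possible. All values below describe this list, and intervals cover counting error only.

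Gene deserts are long stretches of chromosome without protein-coding genes. Many hold enhancers, short sequences bound by transcription factors that act on a promoter far away by looping of the chromatin, and deserts beside genes for transcription factors and other regulators are known for such long-range enhancers. Others are compact, gene-poor chromatin with few open sites. Noncoding RNA genes also occur in deserts, so a region far from coding genes need not be far from all genes. Here a desert is the stretch left between neighbouring protein-coding genes after 100 kb was taken off each side.

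The sequences that can be shown are those of noncoding genes that start inside a far region. Of 113 microRNA genes located more than 100 kb from coding genes, 2 lay in a far region. No share of microRNA genes nearer to coding genes is given here, so nothing is read from this count. Both belong to the miR-29 family, which is known for repressing collagen and other matrix genes. Mir29a (chr6:31062660-31062747) and Mir29b-1 (chr6:31063023-31063093) lay in the same region, chr6:31060951-31063156 (mm10), 744 bp and 1099 bp from its strongest summit. That summit had 48.0-fold enrichment over background (95% interval 43.5 to 52.8) and stood 103 kb from Klf14 and 337 kb from Mkln1. The mature RNAs, from RefSeq on GRCm38.p6 and both on the minus strand, are shown 5′ to 3′ with the seed (bases 2 to 8) in capitals, because the 3p arms share their seed and the 5p arms do not.
mmu-miR-29a-3p: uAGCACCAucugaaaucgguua
mmu-miR-29b-3p: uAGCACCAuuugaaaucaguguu
mmu-miR-29a-5p: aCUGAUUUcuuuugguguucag
mmu-miR-29b-1-5p: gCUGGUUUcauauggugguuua

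Promoter windows from RefSeq (250 bases before to 50 after a start) were held for 1703 noncoding genes whose start lay over 100 kb from coding genes, as 2016 windows. Of these starts, 122 in 108 genes (6.05%, 5.09 to 7.18%) lay inside a far region, against 1347 of 5857 noncoding starts between genes but within 100 kb of a coding gene (23.0%, 21.9 to 24.1%). The 5 windows below are shown because they belong to the strongest region with a noncoding start, to the strongest whose summit falls inside the window, and to the 3 regions of at least 20-fold with an AP-1 match within 20 bp of the summit. They read 5′ to 3′ on the gene's strand (GRCm38.p6), with matches to the motifs described next in capitals. Gm30246 lies at chr14:76817840-76818139 (plus strand) in a 70.0-fold region between Serp2 and Lacc1. Gm26901 lies at chr1:7398047-7398346 (minus) in a 58.8-fold region between Pcmtd1 and Sntg1. Gm35551 lies at chr17:84026272-84026571 (minus) in a 32.5-fold region between Haao and Zfp36l2. Gm33398 lies at chr7:129764621-129764920 (minus) in a 26.5-fold region between Wdr11 and Fgfr2, which encodes an FGF receptor. Gm30657 lies at chr5:118413532-118413831 (minus) in a 20.3-fold region between Spring1 and Med13l.
Gm30246: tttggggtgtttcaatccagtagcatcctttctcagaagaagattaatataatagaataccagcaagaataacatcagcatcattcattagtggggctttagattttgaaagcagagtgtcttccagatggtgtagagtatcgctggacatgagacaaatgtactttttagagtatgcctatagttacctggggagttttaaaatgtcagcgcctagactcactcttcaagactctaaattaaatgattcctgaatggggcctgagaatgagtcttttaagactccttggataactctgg
Gm26901: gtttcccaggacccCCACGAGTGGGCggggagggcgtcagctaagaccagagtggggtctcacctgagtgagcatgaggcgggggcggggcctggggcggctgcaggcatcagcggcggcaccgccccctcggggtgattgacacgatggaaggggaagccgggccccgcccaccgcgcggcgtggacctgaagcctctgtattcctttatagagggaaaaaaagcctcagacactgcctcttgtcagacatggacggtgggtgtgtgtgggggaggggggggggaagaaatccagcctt
Gm35551: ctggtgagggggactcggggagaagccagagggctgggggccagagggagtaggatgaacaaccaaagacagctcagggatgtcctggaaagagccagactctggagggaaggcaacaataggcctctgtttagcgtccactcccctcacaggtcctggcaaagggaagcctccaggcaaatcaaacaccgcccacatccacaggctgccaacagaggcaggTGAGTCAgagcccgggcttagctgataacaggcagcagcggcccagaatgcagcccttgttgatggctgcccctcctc
Gm33398: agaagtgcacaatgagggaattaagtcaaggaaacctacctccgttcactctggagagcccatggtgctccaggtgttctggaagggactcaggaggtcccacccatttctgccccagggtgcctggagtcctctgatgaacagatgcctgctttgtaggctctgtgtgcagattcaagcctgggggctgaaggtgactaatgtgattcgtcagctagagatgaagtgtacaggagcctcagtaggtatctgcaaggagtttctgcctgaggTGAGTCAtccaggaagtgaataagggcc
Gm30657: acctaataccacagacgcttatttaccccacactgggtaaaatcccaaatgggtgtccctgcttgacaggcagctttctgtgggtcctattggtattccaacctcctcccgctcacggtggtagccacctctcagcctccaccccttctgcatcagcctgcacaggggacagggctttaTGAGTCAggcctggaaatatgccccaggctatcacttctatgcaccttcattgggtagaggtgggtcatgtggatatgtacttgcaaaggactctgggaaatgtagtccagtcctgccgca

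Windows were searched on both strands for TGANTCA (AP-1, the factor that T-5224 targets), CAAAGTCCA (HNF4, an intestinal nuclear receptor) and the CTCF core motif (an organiser of chromatin loops). An AP-1 match was found in 17 of the 122 windows whose start lay in a far region (13.9%, 8.89 to 21.2%), in 192 of the 1894 noncoding windows over 100 kb from coding genes but outside far regions (10.1%, 8.86 to 11.6%) and in 7.84% of all 31396 autosomal windows. The intervals of the first pair overlap, so these windows do not show a difference at this number, and the median GC content was 48.5% in the first set and 44.7% in the second. Some windows overlap each other or belong to the same gene. The intervals count them as independent and are therefore too narrow. The 17 windows held 18 distinct AP-1 matches, of which 8 had their centre within 20 bp of the region's strongest summit. The match in Gm35551, TGAGTCA, began 28 bases before the start and lay 13 bp from the summit, and the match in Gm30657 lay 11 bp from it. In Gm33398 the match lay 16 bp from the summit, and the same site falls in the window of Gm33323, a gene that starts close by on the other strand. CTCF matched 2 of the 122 windows (1.64%, 0.451 to 5.78%) against 2.47% of all windows, and the match in Gm26901 lay 250 bp from the summit. HNF4 matched 0 of the 122 windows, which allows a share of up to 2.46%, against 0.487% of all. A match describes letters in the window and is not evidence of binding.

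Far regions were sparse, and sparser the farther they lay from genes. Deserts numbered 1376 and made up 27.3% of the sequence between the first and last coding genes of the autosomes (654 Mb of 2398 Mb), but held 6.34% of the regions there. Their density was 10.8 far regions per Mb, against 59.7 regions per Mb in the rest, 5.54 times as many. Between genes, density was 27.7 per Mb (27.0 to 28.5) at 50 to 100 kb from the nearest coding gene end, 19.2 per Mb (18.6 to 19.8) at 100 to 200 kb and 10.3 per Mb (9.92 to 10.7) at 200 to 500 kb. It was 3.80 per Mb (3.47 to 4.14) at 500 to 1000 kb and 1.72 per Mb (1.42 to 2.07) beyond 1000 kb, where 113 regions lay in 65.7 Mb. None of these intervals overlap. Unsequenced stretches and repeats that reads cannot be placed in were not taken out of the lengths, and their part in the densities was not tested.

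**Figure D1:**
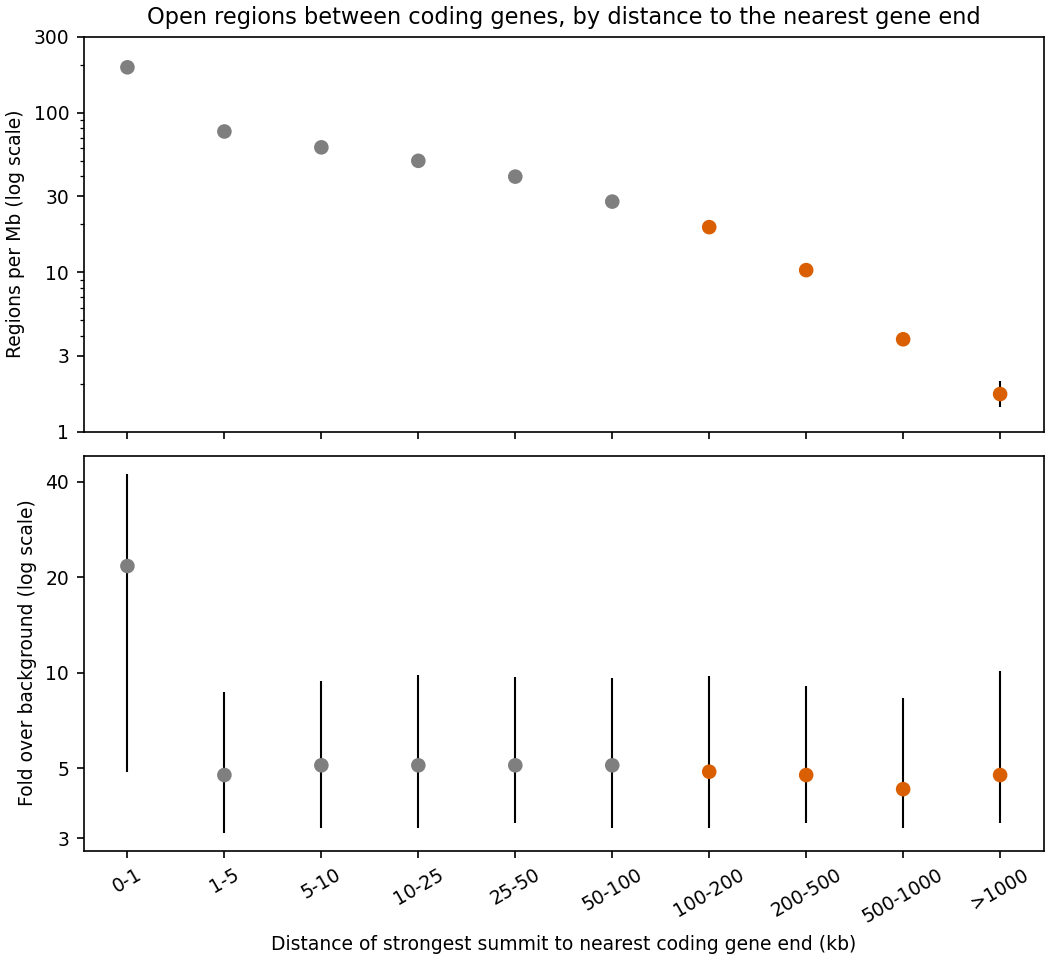
Regions between coding genes by the distance of the strongest summit to the nearest coding gene end, in kb, with far regions in orange. The upper panel gives regions per Mb with 95% counting intervals on a log axis, from 193 per Mb within 1 kb to 1.72 beyond 1000 kb; the lower panel gives the median fold enrichment with its quartiles on a log axis, which is highest within 1 kb (21.7-fold) and between 4.29 and 5.10-fold in every other class.

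The strength of far regions was close to that of other regions away from gene ends. The fold enrichment at a summit is the deposited ratio of the pileup to the expected background, and its median over far regions was 4.75 (25th to 75th percentile, 3.25 to 9.27). Regions between genes that lay 1 to 100 kb from a coding gene end, called nearer regions here, had 4.99 (3.25 to 9.39), and those inside coding genes 4.41 (3.01 to 8.46). The ratio of the far to the nearer median was 0.953, and it was below 1 on 12 of 19 chromosomes, with a mean of 0.953 ± 0.0926 (SD over 19 chromosomes). It was 1.01 when only regions with a −log10 q of at least 10 were kept, so no direction is drawn from it. Of the far regions 589 reached 20-fold (8.29%, 7.67 to 8.95%), where 14.0% of all autosomal regions did, 9.32% (9.02 to 9.63%) of nearer regions and 8.41% of those inside genes. Even beyond 1000 kb the median was 4.75, and 9 of the 113 regions reached 20-fold. These 9 include the neighbouring regions of 911, 196 and 135-fold on chromosome 2 described below, in which the part of copy number was not tested. At the 100 kb limit of the definition, the 572 regions at 100 to 110 kb had a median of 4.93-fold and the 677 at 90 to 100 kb a median of 4.87-fold.

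Far regions were simpler in shape than the others. Their median width was 442 bp (313 to 680), against 460 bp (329 to 722) for nearer regions, and they were the narrower on 14 of 19 chromosomes. More than 1 summit was called in 12.3% of far regions (11.5 to 13.1%), against 16.2% (15.8 to 16.6%) of nearer regions and 18.7% of those inside genes. The share was the lower in far regions on all 19 chromosomes. A width of at least 3 kb was reached by 20 of the 7109 far regions, 279 of the 34572 nearer regions and 585 of the 54316 inside genes.

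Far regions often stood close to each other, though less often than regions nearer to genes did. Of the 7109, 69.7% (68.6 to 70.8%) had another far region within 1/8 of 100 kb, edge to edge. A region of any class lay within that distance of 70.6% (69.5 to 71.6%) of far regions, against 88.5% (88.2 to 88.9%) of nearer regions, 90.1% of those inside genes and 88.5% of those at gene ends. Joining far regions at that distance gave 3498 chains. Single regions made up 2154 of these, and 62 chains with 10 or more members held 907 regions (12.8%). In deserts of at least 300 kb cut into windows of 100 kb, 71.6% of the 5388 windows held none, the fullest 10% of windows held 69.1% of the regions, and the variance of the count was 4.86 times its mean. Members of long chains were stronger: the median was 4.17-fold for single regions, 4.99-fold in chains of 2 to 4, 5.68-fold in chains of 5 to 9 and 5.80-fold in chains of 10 or more. The share at 20-fold or above was 3.81%, 7.74%, 12.1% and 15.0% in the same order, and the share with more than 1 summit 6.36%, 12.4%, 15.7% and 21.1%.

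The longest chain ran for 133 kb from 99.8 kb beyond Klf14 on chromosome 6 (31058808 to 31191342), with 45 regions that covered 45.5% of it and 9 of at least 20-fold. It includes the miR-29 region. The next held 41 regions over 111 kb between Sox9 and Slc39a11 on chromosome 11 (113032130 to 113143594), starting 244 kb from Sox9. A chain of 26 regions lay between Nudt4 and Eea1 on chromosome 10, all within 100.2 kb and with a median of 8.23-fold. On chromosome 4, 25 regions spanned 70.8 kb beyond Cdkn2b, which encodes the cell cycle inhibitor p15. The other chain of 25 stood at the very start of chromosome 9 (2999927 to 3036685), outside the first coding gene and so in no desert, with a median of 4.64-fold and 1 region at 20-fold or above. The part of repeats and copy number in this chain was not tested.

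A minority of deserts held most of the regions. At least 1 far region was found in 896 of the 1376 deserts (65.1%), and the median desert held 2 (0 to 6). The 126 fullest deserts, 14.9% of the desert length, held 50% of the 7049 far regions in deserts; the remaining 60 lay beyond the outermost coding genes. At least 20 were found in 92 deserts (6.69%), which together held 2943, or 41.8%. Fuller deserts were longer: the median length was 89.9 kb for those with 0, 239 kb for 1 to 4, 415 kb for 5 to 19 and 563 kb for 20 or more. Long deserts could still be empty, and among 185 longer than 1 Mb, 20 held none. The longest empty deserts lay between Stim2 and the protocadherin gene Pcdh7 (3.40 Mb), Manea and the Eph receptor gene Epha7 (2.27 Mb), Gm597 and Phf3 (1.82 Mb), the protocadherin gene Pcdh9 and Spertl (1.79 Mb), and Man1a and Tbc1d32 (1.74 Mb).

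**Figure D2:**
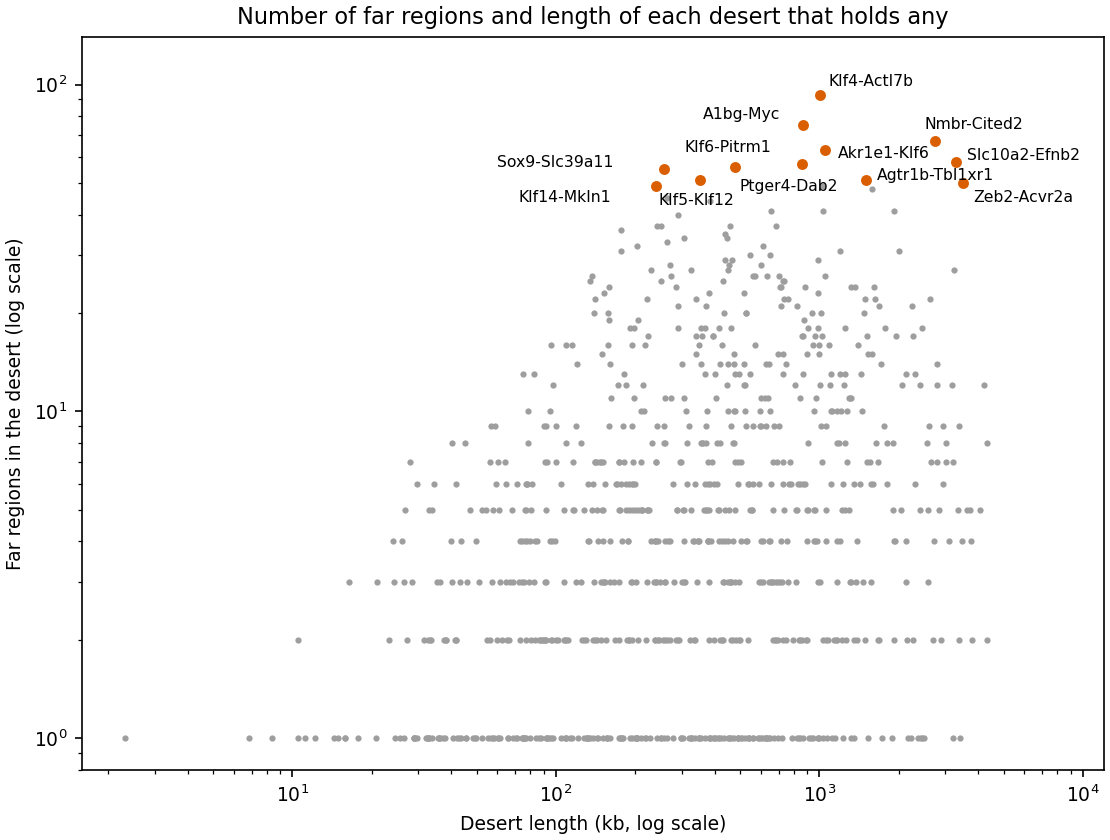
Each point is 1 of the 896 deserts that hold a far region, with its length in kb on a log x axis and its number of far regions on a log y axis; the 480 deserts without any are not drawn. The 12 with the most, in orange and named by their flanking coding genes, hold 49 to 93 regions over lengths from 0.240 to 3.50 Mb.

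The fullest desert was that between Klf4, a zinc finger factor of epithelial differentiation, and Actl7b, an actin-like gene known from testis. It lay on chromosome 4, 55632476 to 56640004, and held 93 far regions in 1.01 Mb (92.3 per Mb), with a median of 5.68-fold. Of these, 12 reached 20-fold, and the strongest, at 55707370 to 55709852, had 56.3-fold (51.5 to 61.6). They were spread over the whole stretch, 51 of 93 nearer to Klf4. The strongest summit at an outer end of Klf4 (1000 bp or closer) had 48.8-fold, and Actl7b had none there.

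Myc, the growth and proliferation factor downstream of Wnt signalling, had a full desert on each side. Between A1bg and Myc on chromosome 15 (61021271 to 61885340), 75 far regions lay in 0.864 Mb, with a median of 6.72-fold, 12 of at least 20-fold and a maximum of 47.8-fold (43.3 to 52.6). Of the 75, 31 were nearer to A1bg, a plasma glycoprotein gene. On the other side, between Myc and Gsdmc, 48 lay in 1.59 Mb, with a median of 4.29-fold, 3 of at least 20-fold and a maximum of 29.6-fold (26.1 to 33.4). The noncoding gene Pvt1 on that side held 13 of these.

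Klf6, a zinc finger factor that responds early to growth signals and injury, also had full deserts on both sides. Towards Akr1e1, an aldo-keto reductase gene, 63 far regions lay in 1.05 Mb of chromosome 13 with a median of 9.04-fold, the highest of the 12 fullest deserts. The strongest of them, at 4771085 to 4772927, had 66.0-fold (60.7 to 71.6) and lay nearer to Akr1e1. Towards Pitrm1, a mitochondrial peptidase gene, 56 lay in 0.478 Mb with a median of 5.39-fold. There, 41 of 56 were nearer to Klf6, and the strongest, at 6130918 to 6132343, had 69.1-fold (63.7 to 74.9). Klf6 itself had 76.9-fold at an outer end.

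Klf5 is a factor of proliferating crypt cells, and Klf12 a related repressor. Their shared desert on chromosome 14 (99413413 to 99766180) held 51 regions in 0.353 Mb, with a median of 7.19-fold and 12 of at least 20-fold. The end summits had 79.3-fold at Klf5 and 7.54-fold at Klf12, and 23 of the 51 regions were nearer to Klf5. The desert between Klf14, an imprinted member of the family, and Mkln1 held 49 in 0.240 Mb (204 per Mb), 43 of them nearer to Klf14. Its strongest, at 31163558 to 31165871 inside the noncoding gene Lncpint, had 63.3-fold (58.1 to 68.8), while the end summit was 4.75-fold at Klf14 and 29.4-fold at Mkln1. In all, 5 of the 12 fullest deserts had a Klf gene at an edge, where 8 of the 1376 deserts did (0.581%); this family was singled out after the values were seen. The other 3 of the 8, beside Klf7 on either side and between Klf12 and Prr30, held 1, 10 and 4.

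Sox9, a factor of crypt stem and progenitor cells with regulatory sequence known to reach far into its deserts, stood beside the densest of the 394 deserts of at least 100 kb with 5 or more regions. Towards Slc39a11, a zinc transporter gene, 55 far regions lay in 0.257 Mb (214 per Mb), where the median of the 394 was 22.2 per Mb. Some shorter deserts with few regions were as dense or denser, such as that between Evx1 and Hibadh with 7 in 0.0278 Mb (251.4 per Mb), named after its value was seen. The 55 regions between Sox9 and Slc39a11 had a median of 4.41-fold, and 9 of them reached 20-fold. The strongest, at chromosome 11, 113093555 to 113094825, had 51.6-fold (46.9 to 56.6). Only 14 of the 55 were nearer to Sox9 than to Slc39a11. The longer desert on the other side of Sox9, towards Gm11677, held 17 in 0.856 Mb.

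**Figure D3:**
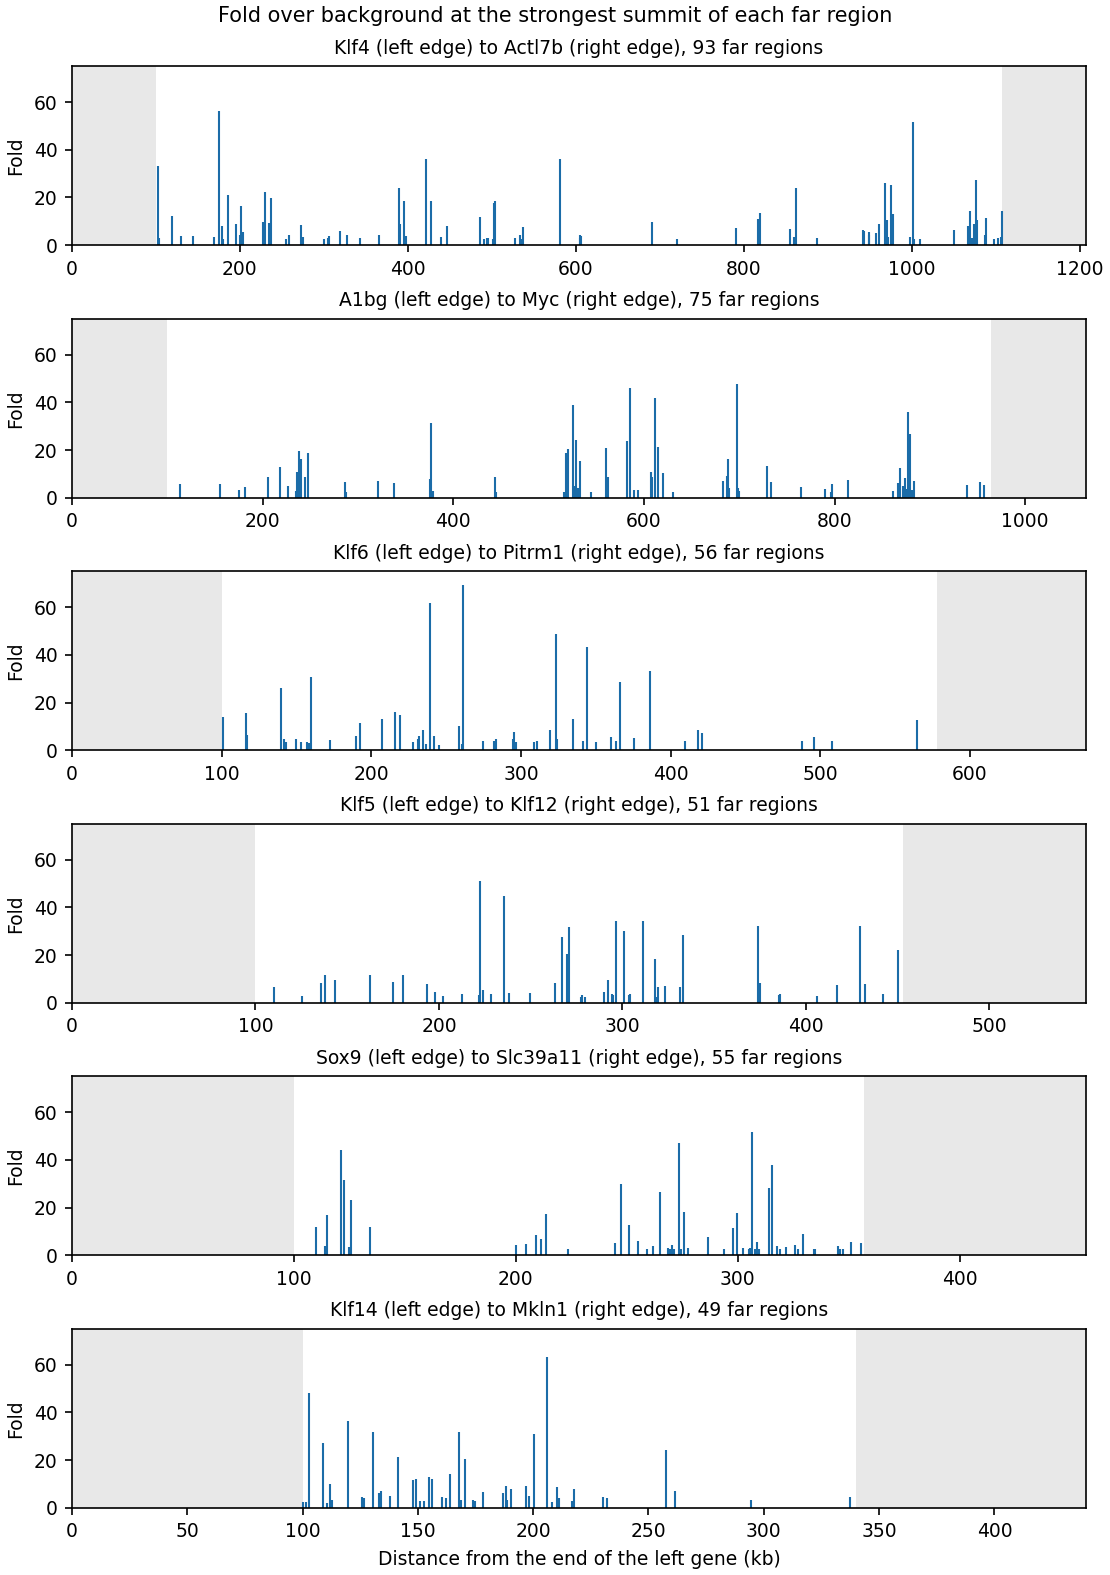
Far regions of 6 deserts, each drawn at its distance in kb from the end of the left coding gene with a line as high as its fold enrichment (linear axis from 0 to 75). Grey bands are the 100 kb next to each gene, which the definition leaves out. Regions span the Klf4 desert from edge to edge, while 41 of 56 in the Klf6 to Pitrm1 desert and 43 of 49 in the Klf14 to Mkln1 desert lie nearer to the left gene.

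The other 5 of the 12 fullest deserts had flanking genes of varied roles. Between Nmbr, the neuromedin B receptor gene, and Cited2, a transcriptional coregulator, 67 regions lay in 2.75 Mb of chromosome 10, and 6 of the 67 were nearer to Nmbr. Cited2 had 48.0-fold at an end and Nmbr none. Between Slc10a2, the ileal bile acid transporter gene, and Efnb2, which encodes ephrin B2, 58 lay in 3.31 Mb with a maximum of 50.7-fold (46.0 to 55.6). Between Ptger4, the EP4 receptor for prostaglandin E2, and the endocytic adaptor gene Dab2, 57 lay in 0.856 Mb, with a median of 7.07-fold and a maximum of 60.4-fold (55.3 to 65.8). Ptger4 had 49.6-fold at an end and Dab2 none. Agtr1b and Tbl1xr1 flanked 51 in 1.51 Mb, 11 of them nearer to Agtr1b, an angiotensin receptor gene without an end summit. Zeb2, a repressor of epithelial genes without an end summit, and the activin receptor gene Acvr2a flanked 50 in 3.50 Mb, 13 of them nearer to Zeb2. The desert between Ccer1 and Atp2b1 also held 49, at a lower density than that of Klf14.

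Among the same 394 deserts of at least 100 kb with 5 or more regions, 4 further ones followed those of Sox9 and Klf14 by density. Between Cdkn2b and Dmrta1, 36 regions lay in 0.177 Mb (203 per Mb), with a maximum of 48.2-fold (43.7 to 53.1). Between Irf2bp2 and Tomm20, a gene of the mitochondrial import receptor, 26 lay in 0.137 Mb (190 per Mb). Haao and Zfp36l2, a gene for an mRNA decay factor, flanked 25 in 0.135 Mb (185 per Mb), among them the region of Gm35551 shown above. Nudt4 and Eea1, an endosome gene, flanked 31 in 0.177 Mb (176 per Mb).

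Lists of genes differed in how many far regions their deserts held. The lists were chosen with earlier results of these data known, so these differences are a description and no independent support. Of 50 regulators of gut epithelium, 28 flanked a desert (56.0%), against 11.4% of all 20560 coding genes used. Their 39 deserts held 758 regions, a median of 10 (3 to 24), where the median over all deserts was 2. These deserts were also longer, with a median length of 0.353 Mb against 0.221 Mb over all deserts. At least 1 region was found in 37 of the 39 (94.9%, against 65.1% of all deserts) and at least 20 in 13 (33.3%, against 6.69%). The density over these deserts was 41.3 per Mb, and their median fold was 5.22. Besides Klf4, Myc, Klf6, Sox9 and Klf5, Foxa2, a factor of endodermal and secretory cells, had 29 in the desert towards Pax1, with a maximum of 49.0-fold (44.5 to 53.9). Of the 12 fullest deserts, 6 had a gene of this list at an edge, as did 2.83% of all deserts.

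Deserts beside regulators of other organs were close to all deserts in density, but they were longer and a larger share of them held a region. Of 58 such genes 42 flanked a desert (72.4%), and the 54 deserts held a median of 4 (1 to 9.75), against 2 over all deserts. Their density was 10.6 per Mb, close to the 10.8 over all deserts. At least 1 region was found in 44 of the 54 (81.5%, against 65.1% of all deserts). Their median length was 0.484 Mb, against 0.221 Mb over all deserts, and the part of length in that share was not tested. Of the 54, 3 held 20 or more (5.56%, close to the 6.69% of all deserts): those of Zeb2, of Bcl11a (31, towards Fancl, in 2.01 Mb) and of Tbx3 (26, towards Med13l). Genes of neuronal adhesion and axon guidance flanked 65 deserts with a median length of 1.17 Mb and a median of 2 regions (0 to 5), at 2.12 per Mb. The desert between Api5 and Lrrc4c, a synaptic adhesion gene, was the only one of the 65 with 20 or more (1.54%, against 6.69% of all deserts), and held 21. The 16 deserts beside genes of odorant and pheromone receptors held 1 region in all, so 6.25% held any, against 65.1% of all deserts. They were short, with a median length of 0.0331 Mb against 0.221 Mb over all deserts, and their density was 0.816 per Mb.

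Of the 14 AP-1 genes and partners only Jun flanked a desert. The Jun to Fggy desert on chromosome 4 held 34 regions in 0.305 Mb (111 per Mb), with a median of 6.03-fold and a maximum of 56.5-fold (51.6 to 61.7). The fetal-like and repair list flanked 10 deserts with a median of 3.5 (1.25 to 7), at 16.4 per Mb against 10.8 over all deserts. At least 1 region was found in 9 of the 10 (90%, against 65.1% of all deserts). Of the 10, 1 held 20 or more (10%, against 6.69% of all deserts). That desert lay between Phlda1, a gene of the injured and fetal-like epithelium, and Krr1. It held 45 of the 78 regions of the list in 0.264 Mb (170 per Mb), with a median of 7.19-fold. The density of the list rests largely on this desert. Of 37 autosomal genes of colonocyte function, junctions and transport, 3 flanked a desert, with 18 regions in all. All 3 deserts held at least 1 region, at 68.9 per Mb, with a median desert length of 0.0379 Mb. Of the 18 regions, 16 lay in the 0.194 Mb desert beside Car2, on which this density mostly rests. These lists were compared with all deserts as a description, and the lists differ in the length of their deserts.

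**Figure D4:**
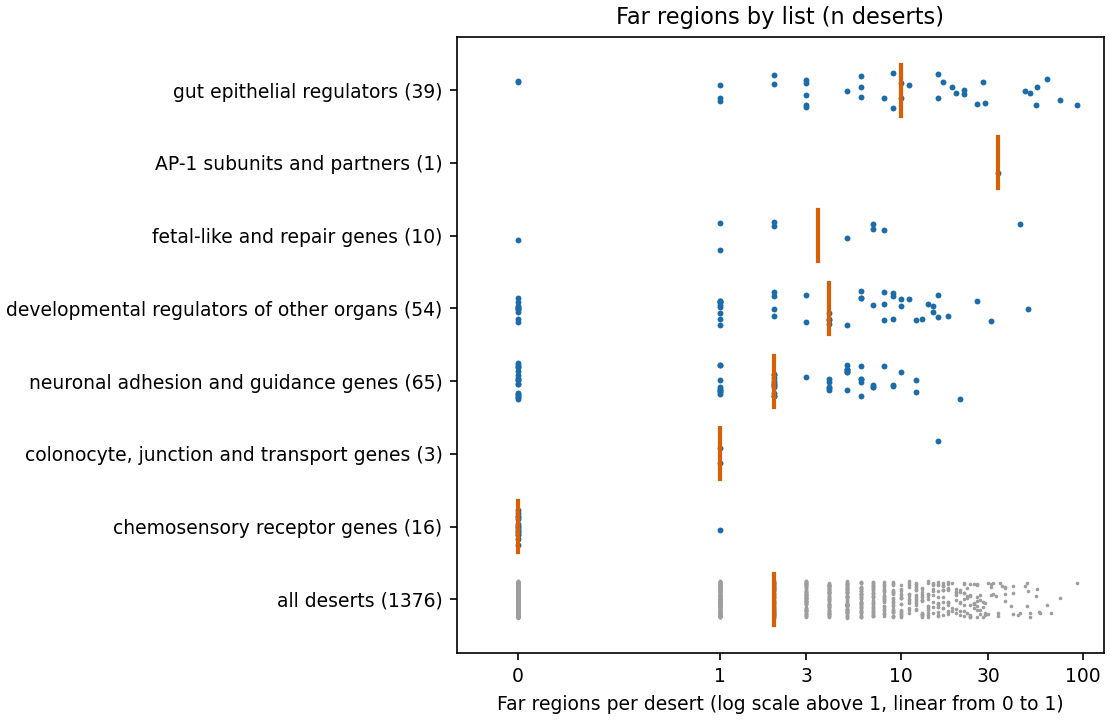
Each point is 1 desert next to a gene of the list named on the left (number of deserts in brackets), placed by its number of far regions on an axis that is logarithmic above 1 and linear from 0 to 1; points are spread vertically for visibility and the orange bar is the median. The median is 10 for gut epithelial regulators, 4 for regulators of other organs, 2 for neuronal adhesion genes and 2 over all deserts.

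Coding genes next to fuller deserts more often had an open end. A summit within 1000 bp of an outer end was found in 48.1% (44.8 to 51.3%) of the 903 genes that flank empty deserts and in 60.3% (57.0 to 63.5%) of those beside deserts with 1 to 4 far regions. The share was 67.2% (63.5 to 70.6%) for 5 to 19 far regions and 73.2% (66.3 to 79.1%) for 20 or more, with 65.9% over all coding genes used. The median end fold was 0, 4.99, 11.2 and 22.5 in the same order. A gene with a desert on each side can count in more than 1 class.

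Noncoding genes covered a part of the far regions. The strongest summit lay inside a noncoding gene, nearly always a long noncoding RNA gene (lncRNA), in 1590 far regions (22.4%, 21.4 to 23.3%), against 18.3% (17.9 to 18.7%) of nearer regions. Within 1000 bp of an end of a noncoding gene the order was the opposite, 4.68% (4.22 to 5.20%) against 7.81% (7.53 to 8.09%). Far regions inside a noncoding gene had a median of 4.93-fold and the others 4.75-fold. The lncRNA gene 2610035D17Rik held the most, 37, in the Sox9 to Slc39a11 desert. Lncpint, known as a target of p53, held 33 and Gm12610 beside Cdkn2b held 28. A930011G23Rik between Rasgef1b and Vamp9 also held 28, and Gm45968 held 24 in the desert between Zpld1 and Nfkbiz. When lncRNA and all other genes except pseudogenes were also kept at 100 kb, 1677 regions remained far. Gm32540, the next noncoding gene with a start in a strong far region, had 42.1-fold, between Myo16 and Irs2.

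The highest far values stood in few places. Of the 10 strongest, 6 were above 100-fold, out of 14 on the autosomes. One stretch of chromosome 2, from 98662142 to 98667457, over 1 Mb from Lrrc4c, held 3 of them, with 911, 196 and 135-fold. The others were 950-fold between Esp15 and Esp38 on chromosome 17, at 106 kb from Esp38 and so just past the limit, 315-fold between Pex2 and 1700008P02Rik on chromosome 3, and 115-fold on chromosome 6 outside the first coding gene. The seventh, 84.5-fold (78.5 to 90.9), was a single summit 391 bp wide between Mc2r and Tcf4 on chromosome 18. Copy number was not divided out of the fold values, and its part in these was not tested. The other 3 were the region of Gm30246 between Serp2 and Lacc1 (70.0-fold, 64.6 to 75.8) and those beside Klf6 given above. The remotest region, at chromosome 14, 82243508 to 82243775, lay 2200 kb from Pcdh17 and farther from Olfm4, a stem cell marker gene in humans, and was weak, with 2.32-fold (1.44 to 3.56).

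Far regions made up between 1.91% of the regions of chromosome 19 and 12.6% of those of chromosome 13, with a median of 6.78% over the 19 chromosomes. Density in deserts ranged from 6.73 to 18.5 per Mb, also lowest and highest on these chromosomes. As a check of the labelled tissue, 9 of 10 marker genes of colonic epithelium had a summit at an outer end, up to 59.1-fold at Krt8, and all 10 had one at an end or within the gene, with 2.90-fold at Muc2. Over all coding genes used, 65.9% had a summit at an outer end. The share of all genes with one at an end or within the gene is not given here, so counts of that kind lack a comparison. Of 4 leukocyte markers, Itgam had 4.99-fold at an end, and Ptprc, Cd3e and Cd79a had none at an end or within the gene. Among small intestine and stomach markers 1 of 4 had an end summit and 3 of 4 one at an end or within the gene, up to 26.4-fold at Atp4a. For fibroblast and endothelial markers these counts were 1 and 4 of 5, up to 16.3-fold at Col1a1, and for neuronal markers 1 and 3 of 3, up to 32.7-fold within Syt1. Markers of other cell types were not without open sites, and the part of other cells in the far regions was not tested.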

How the data were processed

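Per the submitters' processing notes, which list no versions, Bowtie2, MACS2 and mm10 were used; the sources used here state no steps or thresholds and not which libraries were called. The deposited file is a narrowPeak list. Its fold is the authors' linear ratio over background at the summit; in the authors' deposited table the smallest −log10 p was 3.02 and the smallest −log10 q 1.51; the deposited score equals the −log10 q times 10 without its decimals, as tested in every record. Fold values were whole numbers over 1 constant in 100% of records (tolerance 0.01), which gives a background pileup of 7.63 and exact Poisson 95% intervals; the lowest pileup was 17. The depth of each library is unknown.

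Records were joined into distinct regions, placed by their strongest summit, and set against the outer bounds of 20560 autosomal protein-coding genes of NCBI's GRCm38.p6 table, which shares mm10 coordinates. Left out were 105 coding genes at positions below 3 Mb, where the list has no summit, since these coordinates may belong to unplaced scaffolds. On 900 simulated regions set among the real genes, far status and desert were recovered in 100%. Python 3.11.15, pandas 2.3.3, numpy 2.4.6, scipy 1.17.1 and matplotlib 3.10.9 were used. Shares have Wilson intervals.

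Members, the 7 gene lists and settings were chosen with earlier results of these data known. The naming rule took the genes flanking the 12 fullest, 6 densest and 5 longest empty deserts, the 10 strongest and the remotest regions, the 5 longest chains, up to 6 genes a list beside deserts with 20 or more regions, and noncoding genes with the most regions or with a start in a region of at least 20-fold (5 each). The printed promoters, Klf7, Prr30, Gsdmc, Pvt1, Car2 and the Ccer1 to Atp2b1 desert were chosen after their values were seen.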

Additional observations from a re-analysis of the deposited data

Results flagged for a closer look

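The definition left out the X chromosome, which was not part of the counts above. There, 202 of 2124 regions (9.51%, Wilson interval 8.33 to 10.8%) lay more than 100 kb from all coding genes, with a median of 4.81-fold. It is listed only because it lies outside the chromosomes counted above: any number over the 3 that a count of 0 allows would be listed, so nothing is read from it about the share.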

How the results depend on the processing

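Of 87 recomputed values, 62 stayed within 1.5 times the reported count or inside the interval of the reported share or median, and 25 did not. With a −log10 q of at least 10, 4283 far regions remained, at 6.49 per Mb, with a median of 8.0-fold and a ratio of 1.01 to the nearer median. Under that setting 54.1% of deserts held a region, 62.0% of far regions had a neighbour, and the medians per desert were 6 for gut regulators, 2.5 for regulators of other organs and 1 for neuronal genes, with 1 over all deserts. At 50 kb there were 12174 far regions, of which 73.3% had a neighbour; 216 deserts held 50%, and the medians were 2 for AP-1 genes (3 deserts) and 3 for colonocyte genes, with 1 over all deserts. At 200 kb there were 3295, at 7.14 per Mb; 63.6% had a neighbour, 18.6% lay in noncoding genes and 71 deserts held 50%. The medians there were 5 for AP-1 genes, 8 for fetal-like genes and 1 for neuronal genes, with 2 over all deserts, and no colonocyte gene flanked a desert. Keeping all genes except pseudogenes at 100 kb left 1677. Joining at 5 kb and 25 kb gave 54.1% and 79.4% with a neighbour. Each of these settings changes which regions or genes count, and beyond that the cause was not tested. Of the 12 fullest deserts, 11 were again among the 12 fullest at the stricter q and at 50 kb, and 8 at 200 kb. The count was 0 when all genes except pseudogenes bounded the deserts. Deserts were matched by the names of their flanking genes, and noncoding bounds change those names and split deserts. Nothing is therefore read from that 0 about the ranking. Settings added after the data were seen (genes below 3 Mb kept, immune receptor segments as bounds) moved no count by over 1.5 times. No paired analysis was possible because no value belongs to a single library. The depth per library is unknown, and a single list allows no left-out replicate.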

Other observations

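Values of further strong far regions and long chains follow; they were chosen after their values were seen. The strongest far regions after the first 10 had 65.4-fold (60.1 to 71.0) at 477 kb from Fat1, an atypical cadherin gene, 64.7-fold (59.4 to 70.3) at 321 kb from Atp2b1, a calcium pump gene, and 64.1-fold (58.9 to 69.7) at 157 kb from Ctnnb1, which encodes β-catenin of the Wnt pathway. A chain of 20 regions between Tnfaip3, an inhibitor of NF-κB signalling, and Olig3 had a median of 4.87-fold and a maximum of 38.7-fold. A chain of 19 between Exoc2 and the forkhead factor gene Foxq1 had a median of 7.30-fold and 4 regions of at least 20-fold. A chain of 19 between Zpld1 and Nfkbiz, an NF-κB coregulator gene, had a median of 8.70-fold and a maximum of 47.7-fold.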
